A study of Mus musculus with 49 samples.

Results

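The response of hippocampal pyramidal layers to mutant human tau was compared between CA1 and CA3. In each subfield the tau response was taken as the log2 level in rTg4510 mice minus the log2 level in tTA mice, and the CA3 response was then subtracted from the CA1 response, so that a positive value marks a transcript that was raised more, or lowered less, in CA1. This difference of differences drew on 21 of the 49 arrays, which came from 11 of the 17 mice, and it was computed for each of the 22626 probe sets that were not array controls. No probe set was selected by its value. At an adjusted p below 0.05, 878 probe sets (3.88% of those tested) differed between the subfields in their tau response, 496 of them with a higher value in CA1 (2.19%) and 382 with a lower one (1.69%).

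All mice were females aged 6.1 months from 1 cross of a tau responder line with an activator line. The rTg4510 mice (labelled Tg4510) carried both the human tau responder transgene and the tetracycline transactivator under the Camk2a promoter, which drives expression in forebrain excitatory neurons, so the transgene could be on in the pyramidal neurons of both subfields. The tTA mice (labelled TTA alone) carried the transactivator without the tau transgene and were the control, and the double-negative mice (DN, labelled Dbl Neg) carried neither. The comparison had 5 arrays of rTg4510 CA1, 6 of rTg4510 CA3, 5 of tTA CA1 and 5 of tTA CA3, each array being the laser-captured pyramidal layer of 1 mouse. The rTg4510 animal mouse4621 had a CA3 array and no CA1 array. A captured layer is a bulk sample, in which fewer cells of a type and less RNA per cell cannot be told apart.

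CA1 and CA3 are successive stations of the hippocampal circuit: CA3 pyramidal neurons excite one another and project to CA1 through the Schaffer collaterals, and CA1 pyramidal neurons carry the output toward the subiculum and cortex. Tau is a microtubule-associated protein of axons, and its mutant forms aggregate into neurofibrillary tangles in the forebrain neurons of rTg4510 mice. Microglia and astrocytes respond to degenerating neurons with phagocytic, complement, lysosomal and cytoskeletal genes, while pyramidal neurons of each subfield keep their own sets of channels, calcium-dependent kinases and transcription factors.

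The subfield labels were checked against their defining markers. The mean log2 level of 5 CA1 pyramidal markers was 9.24 ± 0.14 (SD) on the DN CA1 arrays and 5.33 on the DN CA3 arrays, whereas 7 CA3 pyramidal markers averaged 7.75 in DN CA3 and 5.65 in DN CA1. On the arrays of the comparison the CA1 markers stood at 6.34 or above on every CA1 array and at 5.93 or below on the CA3 arrays except that of tTA mouse4592, which read 6.73 against 5.18 to 5.68 on the other tTA CA3 arrays. Array medians ran from 4.95 to 5.07, and the array least like the rest of its group was tTA CA1 of mouse4592, with a correlation of 0.98 and the lowest weight (0.348). The RNA quality of the groups was not balanced. The log2 ratio of the 3′ to the 5′ Actb control probe sets, CA1 minus CA3 within a mouse, was 0.12 ± 0.08 in rTg4510 and -0.06 ± 0.06 in tTA mice (SD, n = 5 each), a difference of 0.18 (two-sided exact permutation p = 0.0159, adjusted over 2 control genes p = 0.0318). The same measure for Gapdh differed by -0.19 (exact permutation p = 0.214). With the Actb ratio as a covariate, 651 probe sets passed limma's test at the same adjusted p, 609 of them among the 878, and the part of RNA quality in the remainder was not tested.

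Most of the difference lay on the CA1 side. Taken by itself, the tau response in CA1 passed the test for 3017 probe sets (13.3%), 1629 higher and 1388 lower, while that in CA3 passed for 366 (1.62%), 230 higher and 136 lower. When arrays were centred on their medians, the CA1 split became 1422 higher and 1799 lower. Of the 496 probe sets with the higher value in CA1, 418 (84.3%) rose in CA1 without a call in CA3, 6 rose in both subfields, 16 (3.23%) fell in CA3 only and 56 (11.3%) passed in neither subfield alone. Of the 382 with the lower value, 291 (76.2%) fell in CA1 without a call in CA3, 24 (6.28%) rose in CA3 only, 1 fell in both, 1 moved in opposite directions and 65 (17.0%) passed in neither. The genes that rose in both layers but more in CA1 were C4b and C3ar1, of the complement system, and Gfap, the astrocyte filament protein. No named gene was called in opposite directions in CA1 and CA3. The CA1 and CA3 responses used separate arrays but the same mice, apart from mouse4621, which had a CA3 array only.

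**Figure D1:**
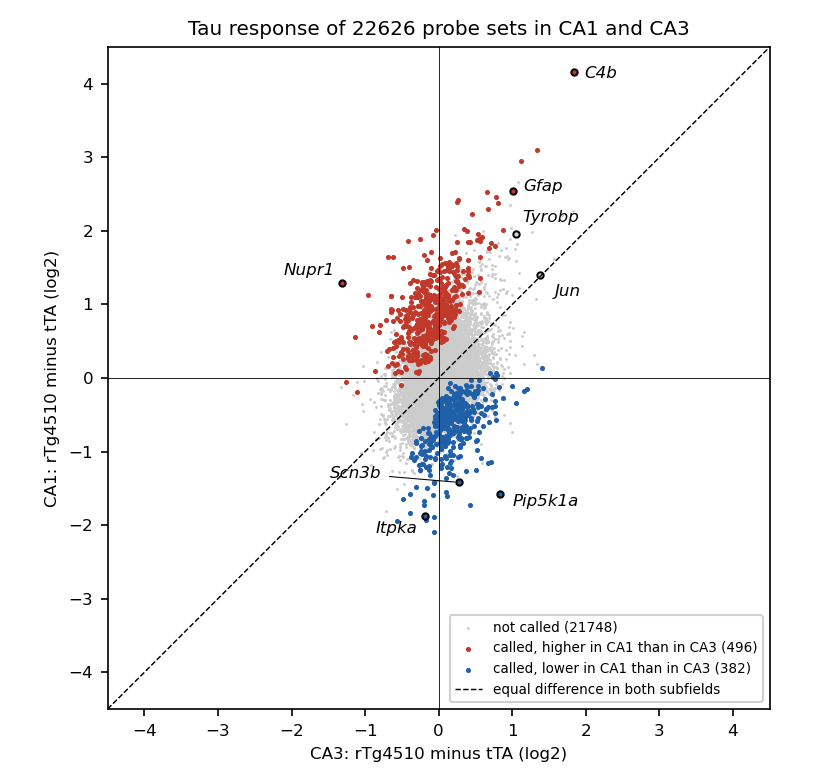
Tau response (rTg4510 minus tTA, log2) in CA1 on the vertical axis against that in CA3 on the horizontal axis for 22626 probe sets, with called probe sets colored by the direction of the difference of differences (496 higher and 382 lower in CA1) and selected genes labeled. Called points spread along the CA1 axis, while Jun lies on the diagonal with 1.40 in CA1 and 1.38 in CA3.

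The size of the difference was a median of 1.01 among the 496 higher probe sets (range 0.36 to 2.61), 253 of which differed at least 2-fold. It was a median of -0.77 among the 382 lower ones, 106 of which differed at least 2-fold. Over all tested probe sets the median was -0.01. The CA1 minus CA3 values of individual mice did not overlap between rTg4510 and tTA for 728 probe sets (3.22%), and 362 of the 878 were among these. Low signal touched the higher set more: 188 of the 496 had at least 1 group mean under the median probe set level of 5.04, and 94 had all 4 group means under it, compared with 86 and 38 of the 382. Counted as genes by their brightest probe set, 299 of 11807 were higher (2.53%) and 210 lower (1.78%). The corresponding shares were 7.54% higher and 7% lower for the CA1 response, and 0.949% higher and 0.627% lower for the CA3 response. These shares are the background for the gene lists that follow.

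The genes that set CA1 apart from CA3 in mice without transgenes were examined first. In the DN arrays, which are no part of the comparison, 1417 probe sets were higher in CA1 and 1503 higher in CA3. Of the CA1-high sets, 165 (11.6%) had a lower and 17 (1.2%) a higher difference of differences, and 75.7% were below 0. Of the CA3-high sets, 99 (6.59%) were higher and 9 (0.599%) lower, and 35.4% were below 0. Among the 19706 sets with no DN difference, 380 (1.93%) were higher and 208 (1.06%) lower, and 51.7% were below 0. The trend was steeper for sets at least 2-fold apart: 67 of 389 CA1-high sets (17.2%) were lower, with a median of -0.40, and 45 of 313 CA3-high sets (14.4%) were higher, with a median of 0.33. The CA1-high sets had a median response of -0.20 in CA1 and 0.04 in CA3.

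Measured per mouse, the contrast between the layers was smaller in tTA than in DN mice and smaller again in rTg4510 mice for the CA1-high sets. The median CA1 minus CA3 gap over the CA1-high sets was 0.72 ± 0.01 in DN, 0.47 ± 0.05 in tTA and 0.23 ± 0.09 in rTg4510 mice (SD, n = 5 each), and the 3 genotypes did not overlap (0.70 to 0.73, 0.41 to 0.56 and 0.09 to 0.33). Over the CA3-high sets the gap was -0.61 ± 0.05 in DN, -0.46 ± 0.10 in tTA and -0.34 ± 0.09 in rTg4510 mice, and the tTA range of -0.60 to -0.33 overlapped the rTg4510 range of -0.49 to -0.27. The DN values are a description, since they chose the sets, and no test was made between genotypes.

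**Figure D2:**
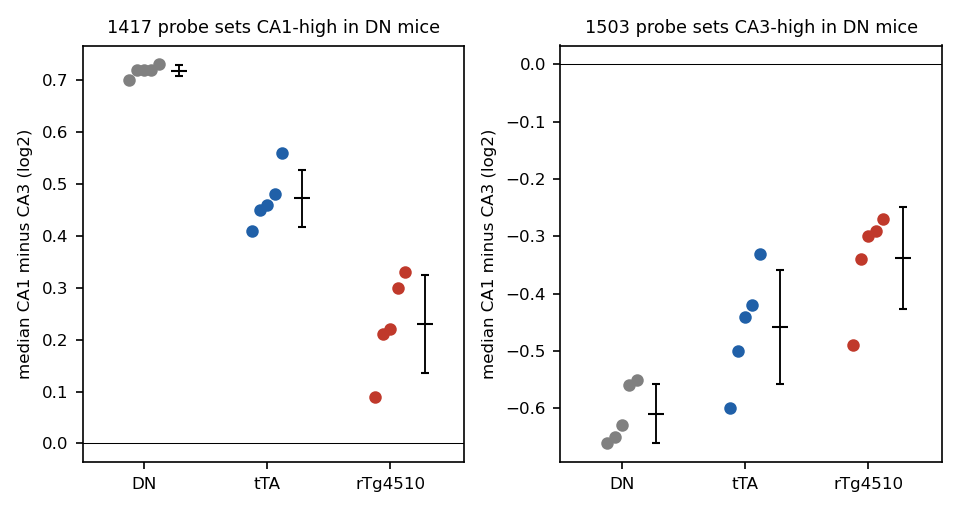
Median CA1 minus CA3 log2 gap of each mouse over the probe sets that were higher in CA1 (1417) or in CA3 (1503) in DN mice, by genotype, with group means and SD. For the CA1-high sets the points average 0.72 in DN, 0.47 in tTA and 0.23 in rTg4510. The DN arrays chose the sets, so their distance from the other genotypes is only a description. The tTA and rTg4510 points do not overlap for the CA1-high sets, and they overlap for the CA3-high sets.

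The CA1 pyramidal markers had the lowest median of the lists. All 5 measured members fell in CA1, none passed in CA3, and 3 passed for the difference between subfields: Itpka, the kinase that phosphorylates inositol trisphosphate in dendritic spines, Wfs1, an endoplasmic reticulum protein, and Lefty1 (-1.17), a secreted antagonist of the TGF-beta family. The list median was -1.09, and its mean level on the CA1 arrays went from 8.69 ± 0.42 in tTA (8.18 to 9.28) to 7.23 ± 0.61 in rTg4510 (6.34 to 7.92), with no overlap, while in CA3 it was 5.76 ± 0.58 in tTA (5.18 to 6.73) and 5.39 ± 0.33 in rTg4510 (5.0 to 5.93). Without the tTA CA3 array of mouse4592 the list median was -1.26. Itpka read 8.06, 8.39, 8.65, 8.74 and 9.19 on the tTA CA1 arrays and 5.42, 6.51, 6.73, 7.45 and 7.49 on the rTg4510 CA1 arrays. In CA3 it read 6.56 to 7.04 in tTA and 6.13 to 7.01 in rTg4510, with a median of 6.62. Every rTg4510 CA1 array was below every tTA CA1 array, and the CA3 groups overlapped. The Itpka responses were -1.88 in CA1 and -0.18 in CA3, a difference of -1.70 (limma, adjusted p = 0.000936).

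The size of the Wfs1 difference depended on the control. It read 11.05, 11.39, 11.40, 11.41 and 11.79 on the tTA CA1 arrays and 9.57, 9.98, 10.18, 10.45 and 10.61 on the rTg4510 CA1 arrays, which did not overlap, while DN CA1 lay at 12.15 to 12.30. In CA3 it ranged from 8.16 to 9.66 in tTA and from 8.10 to 9.09 in rTg4510. The difference of differences was -1.0 (95% interval -1.61 to -0.39, limma adjusted p = 0.0482) against tTA and -1.90 (adjusted p = 2.75e-05) with DN as the control, a comparison that shares the rTg4510 arrays. The tTA result was near the threshold and was lost in 21 of 33 alternatives. Pou3f1, a POU transcription factor of CA1, had a value of -1.09 with an interval of -2.26 to 0.08 (adjusted p = 0.339) against tTA and -2.18 (adjusted p = 0.0125) against DN.

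Of 7 CA3 pyramidal markers, 1 passed for the difference. On the CA1 arrays the mean level of this list was 5.65 ± 0.26 in DN, 5.08 ± 0.27 in tTA and 5.68 ± 0.54 in rTg4510 (SD). The list level in rTg4510 CA1 was thus above tTA but near DN. Nectin3, a synaptic adhesion molecule, read 7.20, 7.28, 7.87, 7.95 and 8.30 in tTA CA1 and 8.41, 8.83, 8.99, 9.02 and 9.53 in rTg4510 CA1, so the CA1 groups were apart. Its CA3 levels were 10.26 to 10.69 in tTA and 10.53 to 10.84 in rTg4510, higher than any CA1 array. It rose by 1.21 in CA1, and the difference of 1.01 (limma, adjusted p = 0.0379) was lost in 14 of 33 alternatives. Rspo2, a Wnt pathway agonist, was the member that rose in CA3 (0.75, limma adjusted p = 0.0267). Of 8 dentate granule markers, Tdo2, tryptophan dioxygenase, was lower (-1.15), with a rise of 0.87 in CA3, and the list median was 0.02.

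The list of postsynaptic signaling genes shares Itpka with the CA1 markers. Of 19 measured members, 14 fell in CA1 and none passed in CA3, and 7 had a lower value in CA1 (the list median was -0.53): Itpka, Nrgn, Camk2b, Prkcb, Dlg3, Ptk2b and Ppp3ca. Nrgn encodes neurogranin, which binds calmodulin in spines, and read 9.26, 9.37, 9.38, 9.52 and 9.72 in tTA CA1 and 7.71, 8.01, 8.03, 8.48 and 8.75 in rTg4510 CA1. In CA3 it was 9.29 to 9.51 in tTA and 8.76 to 9.59 in rTg4510. The CA1 groups were apart and the CA3 groups overlapped, and the difference was -0.99 (limma, adjusted p = 0.00709). Camk2b, a subunit of calcium/calmodulin-dependent kinase II, differed by -0.76, Prkcb, a protein kinase C, by -0.90, Dlg3, a scaffold protein, by -0.61, and Ppp3ca, the calcineurin catalytic subunit, by -0.47. Camk2a, the partner of Camk2b, had fallen in CA1 (-0.53), and its difference was -0.22 with an interval of -0.56 to 0.13 (adjusted p = 0.569).

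Ion channels contributed a smaller share. Scn3b, a beta subunit of voltage-gated sodium channels, had the lowest p of the genes named here. It read 8.74, 8.80, 8.94, 9.02 and 9.38 in tTA CA1 and 6.82, 7.17, 7.51, 8.15 and 8.17 in rTg4510 CA1, against 7.93, 7.96, 7.97, 7.99 and 8.14 in tTA CA3 and 7.93 to 8.47 (median 8.35) in rTg4510 CA3. In every tTA mouse CA1 exceeded CA3, by 0.98 ± 0.19 (SD, n = 5), and in every rTg4510 mouse CA1 was below CA3, by -0.74 ± 0.45 (n = 5). The difference was -1.69 (95% interval -2.12 to -1.26, limma adjusted p = 1.17e-05), and a second probe set gave -2.16. It was otherwise 1 of 28 sodium, calcium and HCN channel genes to pass, with 7 of them falling and 2 rising in CA1 and a list median of -0.14. Of 54 potassium channel genes, 4 were lower and none higher: Kcnab1 (-1.42) and Kcnip4 (-1.11), which are accessory subunits, Kcnh7 (-1.39), of the ether-a-go-go family, and Kcnj3 (-0.90), a G protein-gated inward rectifier. The median of that list was -0.04. Among 14 glutamate receptor genes Grin2a, an NMDA receptor subunit, was lower (-1.27), and among 18 presynaptic genes Doc2b, a calcium sensor of vesicle release, was lower (-1.03). The medians of these lists were -0.03 and 0.06. Gria2, an AMPA receptor subunit, had -0.40 (adjusted p = 0.0707) against tTA and -0.67 (adjusted p = 0.000443) against DN.

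**Figure D3:**
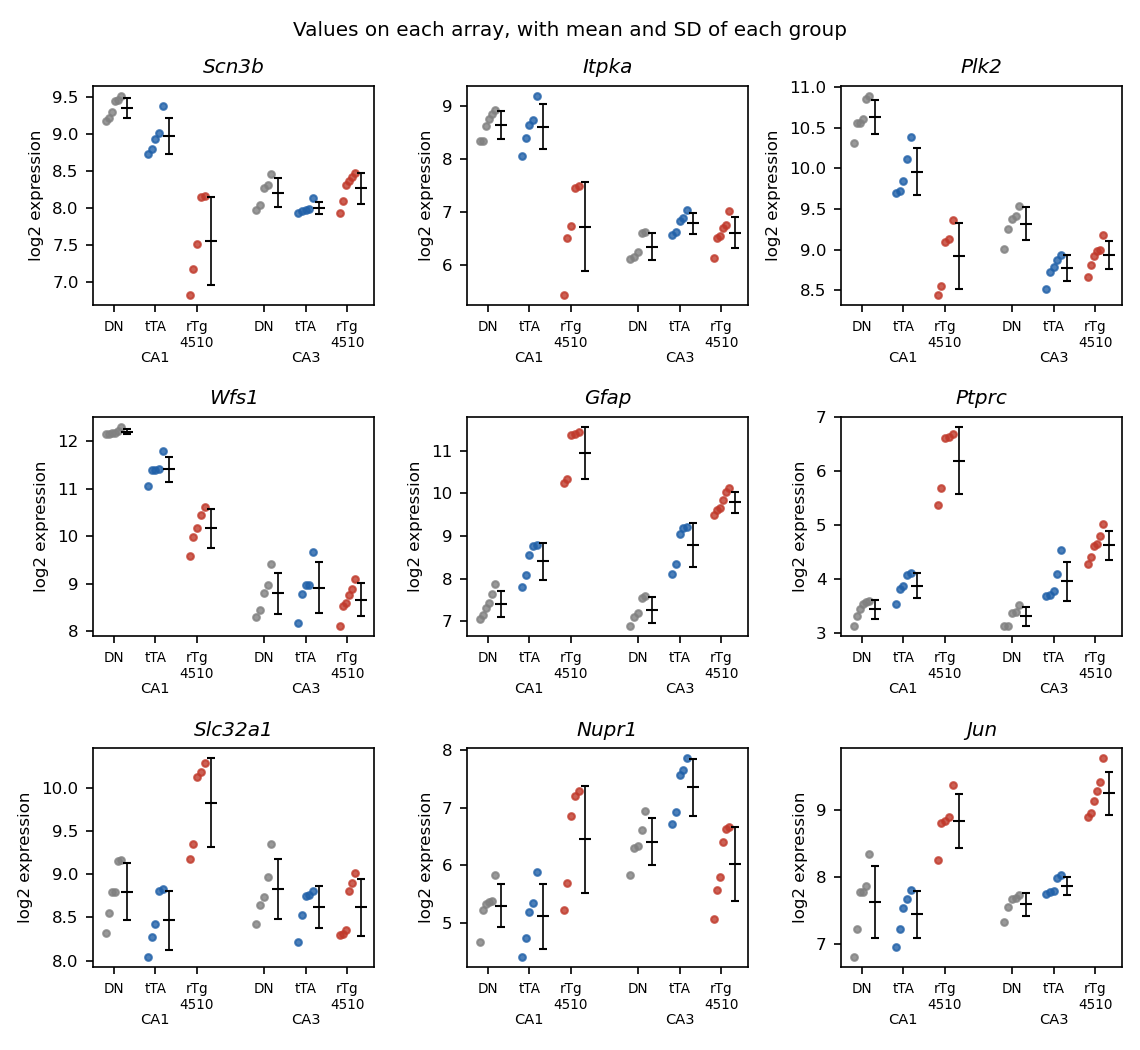
Log2 expression of 9 genes on the CA1 and CA3 arrays of DN, tTA and rTg4510 mice, each point 1 array, with the mean and SD of each group beside the points. For Scn3b the tTA CA1 arrays lie between 8.74 and 9.38 and the rTg4510 CA1 arrays between 6.82 and 8.17, while both CA3 groups lie between 7.93 and 8.47.

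Immediate early genes, which neurons switch on with activity, were lower as far as they differed. Of 27 measured, 4 had a lower value and none a higher one: Egr1 and Nr4a1 (-1.14), transcription factors induced by firing, Nr4a2 (-0.86), of the same family as the latter, and Dusp6 (-0.99), a phosphatase of ERK. Of these, Nr4a1 lost its call in 11 and Dusp6 in 12 of 33 alternatives. In CA1, 7 fell and 1 rose, in CA3, 1 rose, and the list median was -0.21. Egr1 read 10, 10.09, 10.16, 10.18 and 10.41 in tTA CA1 and 8.74, 9.0, 9.40, 9.59 and 9.93 in rTg4510 CA1, whereas in CA3 the groups overlapped at 8.53 to 9.27 in tTA and 8.74 to 9.88 in rTg4510. It fell by 0.81 in CA1, and the difference was -1.20 (limma, adjusted p = 0.0096). Arc, the effector of synaptic scaling, fell by 1.29 in CA1, but its difference of -0.95 had an interval of -1.73 to -0.18 and did not pass (adjusted p = 0.17). Jun was the exception. It read 6.96 to 7.81 in tTA CA1 and 8.25 to 9.38 in rTg4510 CA1, and 7.74 to 8.03 in tTA CA3 and 8.89 to 9.78 in rTg4510 CA3, apart in both layers. It rose by 1.40 in CA1 and 1.38 in CA3, a difference of 0.02 with an interval of -0.45 to 0.49.

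Plk2, an activity-induced kinase that acts at synapses and is a p53 target, kept its call in all 33 alternatives. It read 9.70, 9.72, 9.85, 10.12 and 10.38 in tTA CA1 and 8.44, 8.55, 9.10, 9.13 and 9.37 in rTg4510 CA1. In CA3 it read 8.52, 8.72, 8.79, 8.87 and 8.93 in tTA and 8.67 to 9.18 in rTg4510. No rTg4510 CA1 array reached the lowest tTA CA1 array, and the difference was -1.21 (limma, adjusted p = 0.000503). Of the 19 genes of the p53 and growth arrest list, 2 were lower, Plk2 and Pmaip1 (-1.37), a BH3-only death gene, and 2 higher, Cdkn1a (1.45), the p21 cell cycle inhibitor, and Gadd45a (1.41), a stress sensor. The list median was 0.07. Pmaip1 took the opposite sign with DN as the control (0.62, adjusted p = 0.271).

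The 10 genes with the largest negative difference, among called genes with at least 1 group mean at or above the median level, were Pip5k1a, Depdc7, Xbp1, Scamp4, Rin1, Dnajb5, Itpka, Scn3b, Gca and Sema3e, from -2.41 to -1.64. Pip5k1a makes the membrane lipid PIP2. It read 5.92 to 6.78 in tTA CA1 and 4.01 to 5.82 in rTg4510 CA1, and 4.43 to 5.93 in tTA CA3 and 5.32 to 6.49 in rTg4510 CA3, so only the CA1 groups were apart. Its response was -1.57 in CA1 and 0.84 in CA3, where it did not pass (adjusted p = 0.196), and the difference was -2.41 (95% interval -3.30 to -1.52, limma adjusted p = 0.00167). Its other probe sets gave -1.03, -0.67 and -0.19. Rin1 (-1.76, limma adjusted p = 0.000903), a Ras effector of dendrites, and Sema3e (-1.64, adjusted p = 0.0021), a guidance ligand, kept their calls in all 33 alternatives. The Xbp1 value of -1.83 came from 1 probe set, while its other sets lay between -0.34 and -0.17 without passing. Scamp4 and Gca likewise had other probe sets at 0.02 and 0.33.

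On the high side, the difference included genes of microglia. Of 26 microglial genes measured, 18 rose in CA1 and 4 in CA3 (C1qa, Ctss, Mpeg1 and Tyrobp), and 4 passed for the difference: Ptprc (CD45), Cx3cr1, the fractalkine receptor, Csf1r (0.96), the receptor of the microglial growth factor, and Irf8, a myeloid transcription factor. The list median was 0.66, against -0.01 over all genes. The mean level of the list was 5.28 ± 0.16 in tTA CA1 (5.10 to 5.43), 6.38 ± 0.40 in rTg4510 CA1 (5.98 to 6.82), 5.17 ± 0.24 in tTA CA3 (4.87 to 5.48) and 5.61 ± 0.15 in rTg4510 CA3 (5.37 to 5.76). The CA1 groups were apart and the CA3 groups overlapped slightly. Ptprc read 3.54 to 4.11 in tTA CA1 and 5.37, 5.69, 6.62, 6.64 and 6.69 in rTg4510 CA1, and 3.69 to 4.54 in tTA CA3 and 4.28 to 5.03 in rTg4510 CA3, with a difference of 1.63 (limma, adjusted p = 0.00197). Cx3cr1 (1.52) and Irf8 (1.43) were lost in 18 and 15 of 33 alternatives.

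Tyrobp, the signaling adaptor of TREM2, rose in both layers. It read 7.44 to 8.40 in tTA CA1 and 9.44, 9.48, 10.03, 10.45 and 10.46 in rTg4510 CA1, and 7.45 to 8.48 in tTA CA3 and 8.67 to 9.29 in rTg4510 CA3, without overlap in either. Its responses of 1.95 in CA1 and 1.05 in CA3 differed by 0.90 (95% interval 0.29 to 1.51), which did not pass (limma, adjusted p = 0.0823). Of 21 genes of activated microglia, 15 rose in CA1, 1 in CA3, and 7 passed for the difference (list median 0.45): Apoe (1.07), the lipid carrier, Clec7a (0.98) and Tlr2 (0.72), pattern receptors, Ctsz (0.76), a cathepsin, Csf1 (1.33), the growth factor, Ccl6 (1.29), a chemokine, and Cd52 (1.0). In this list 11 members, and in the microglial list 7, had all 4 group means under the median probe set level.

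Complement genes were led by C4b, the mouse C4 of the classical cascade. It read 4.22, 4.26, 4.34, 4.38 and 4.39 in tTA CA1 and 7.62, 7.73, 9.0, 9.17 and 9.19 in rTg4510 CA1. In CA3 it read 3.46, 4.53, 4.77, 4.89 and 5.41 in tTA and 5.23 to 7.33 (median 6.54) in rTg4510. The CA1 groups were far apart, and in CA3 the lowest rTg4510 array lay below the highest tTA array. C4b rose 17.9-fold in CA1 and 3.57-fold in CA3, and the log2 difference was 2.33 (limma, adjusted p = 0.00453). All tTA CA1 arrays, and the tTA CA3 arrays except that at 5.41, lay under the median probe set level of 5.04. Low signal therefore limits these fold values. Of 21 complement genes, 11 rose and 1 fell in CA1, 3 rose in CA3, and 4 were higher for the difference: C4b, C3ar1 (1.14), the C3a receptor, Serping1 (1.11), the C1 inhibitor, and Clu (0.50), clusterin. Cd55, which protects cells from complement, was the 1 lower member (-1.05). The list median was 0.41.

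Astrocyte genes showed a difference in 7 of 17 members, all higher, with a list median of 0.61: Gfap, Aqp4 (1.14), the water channel, Gja1 (0.58) and Gjb6 (1.03), connexins, Ptprz1 (0.98), Ntsr2 (0.81) and Mlc1 (0.89). In CA1 11 members rose, and in CA3 Gfap alone did. The mean level went from 7.96 ± 0.23 to 8.82 ± 0.33 in CA1, and from 8.12 ± 0.22 to 8.25 ± 0.11 in CA3. Gfap read 7.79, 8.09, 8.55, 8.77 and 8.79 in tTA CA1 and 10.24, 10.34, 11.37, 11.39 and 11.43 in rTg4510 CA1, against 8.11, 8.34, 9.05, 9.18 and 9.22 in tTA CA3 and 9.48 to 10.12 in rTg4510 CA3. Both layers were apart. It rose 5.82-fold in CA1 and 2.01-fold in CA3, and the log2 difference was 1.53 (limma, adjusted p = 0.00335). Of 23 reactive astrocyte genes, 9 rose in CA1 and 1 in CA3, and 4 were higher: Gfap, Vim (vimentin, 1.77), Fbln5 (0.78) and H2-D1 (1.40). The list median was 0.38, and 17 members were under the median level in all 4 groups. Vim read 6.24 to 7.77 in tTA CA1 and 8.54 to 10.36 in rTg4510 CA1, and 6.70 to 8.43 and 7.55 to 8.11 in CA3.

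Some oligodendrocyte and vascular genes passed on the high side. Of 16 oligodendrocyte genes, 11 rose in CA1, 1 fell in CA3 and 4 were higher for the difference (median 0.84): Trf (1.43), transferrin, Gsn (1.49), gelsolin, Cldn11 (1.01), a myelin claudin, and Olig2 (0.59), the lineage factor. The Olig2 call came with a fall in CA3 and no call in CA1. Cldn11 lost its call in 15 of 33 alternatives. Of 19 endothelial and mural genes, 8 rose in CA1, none passed in CA3, and Acta2 (1.52), smooth muscle actin, Vtn (1.36), a pericyte marker, and Slc2a1 (0.61), the glucose transporter, were higher (median 0.54). The Slc2a1 call was lost in 21 of 33 alternatives, and its second probe set gave 0.51 without passing. Their mean level went from 5.39 to 5.89 in CA1 and from 5.32 to 5.29 in CA3. Of 7 markers of choroid plexus and ependyma none was called, and 6 were under the median probe set level in all 4 groups. Of 3 red blood cell genes none was called and 2 were likewise under that level, while Hba-a1, alpha globin, had a difference of 1.06 (95% interval 0.04 to 2.07, limma adjusted p = 0.264), with other probe sets at 1.20 and 0.94. The part of non-neuronal cells caught with the CA1 layer in the results for pyramidal genes was not tested.

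Inhibitory interneurons are cells where the Camk2a promoter is not known to be active. Of 21 of their genes measured, 12 rose in CA1, none passed in CA3, and 5 were higher for the difference, with a list median of 0.62: Slc32a1, the vesicular GABA transporter, Gad1 (0.76) and Gad2, the GABA-synthesizing enzymes, Dlx2 (1.17), a lineage factor, and Htr3a (0.92), a serotonin receptor. Slc32a1 read 8.04 to 8.83 in tTA CA1 and 9.18, 9.35, 10.12, 10.18 and 10.29 in rTg4510 CA1, and 8.22 to 8.81 and 8.30 to 9.02 in tTA and rTg4510 CA3. The difference was 1.34 (limma, adjusted p = 0.00282), though a second probe set gave 0.15 without passing. Gad2 read 7.72 to 8.73 in tTA CA1 and 8.94, 9.62, 9.78, 9.80 and 10.02 in rTg4510 CA1, and 7.87 to 8.38 and 8.07 to 8.78 in CA3, with a difference of 1.03 (limma, adjusted p = 0.0178). For both genes the CA1 groups were apart and the CA3 groups overlapped. Npy, a neuropeptide of interneurons, had a difference of 0.26 with an interval of -0.30 to 0.82. The mean level of the list went from 6.35 ± 0.18 to 7.04 ± 0.30 in CA1 and from 6.11 to 6.19 in CA3.

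Of 29 lysosomal genes measured, 22 rose in CA1 and 3 in CA3, and 8 were higher for the difference (median 0.57): Lamp2 and Scarb2 (0.57), membrane proteins, Npc1 (0.81) and Npc2 (0.70), which export cholesterol, Grn (0.67), progranulin, and the hydrolases Gusb (0.99), Asah1 (0.70) and Ctsz (0.76). Lamp2 read 6.66 to 7.24 in tTA CA1 and 7.76 to 9.09 in rTg4510 CA1, apart, and 6.95 to 7.84 and 7.38 to 8.04 in CA3, overlapping, with a difference of 1.13 (limma, adjusted p = 0.00397). Of 21 genes of interferon response and antigen presentation, 14 rose in CA1 and none passed in CA3. In that list 5 were higher, with a median of 0.77: Ifit1, Ifit3 (1.15) and Ifitm3 (1.27), antiviral effectors, Gbp3 (1.19), a guanylate-binding protein, and H2-D1 (1.40), a class I antigen whose other probe sets lay between -0.28 and 0.35. Ifit1 read 4.04 to 4.51 in tTA CA1 and 4.67 to 6.92 in rTg4510 CA1, and 4.20 to 4.78 and 4.18 to 4.67 in CA3. The difference was 1.47 (limma, adjusted p = 0.00265), and the CA3 groups overlapped.

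**Figure D4:**
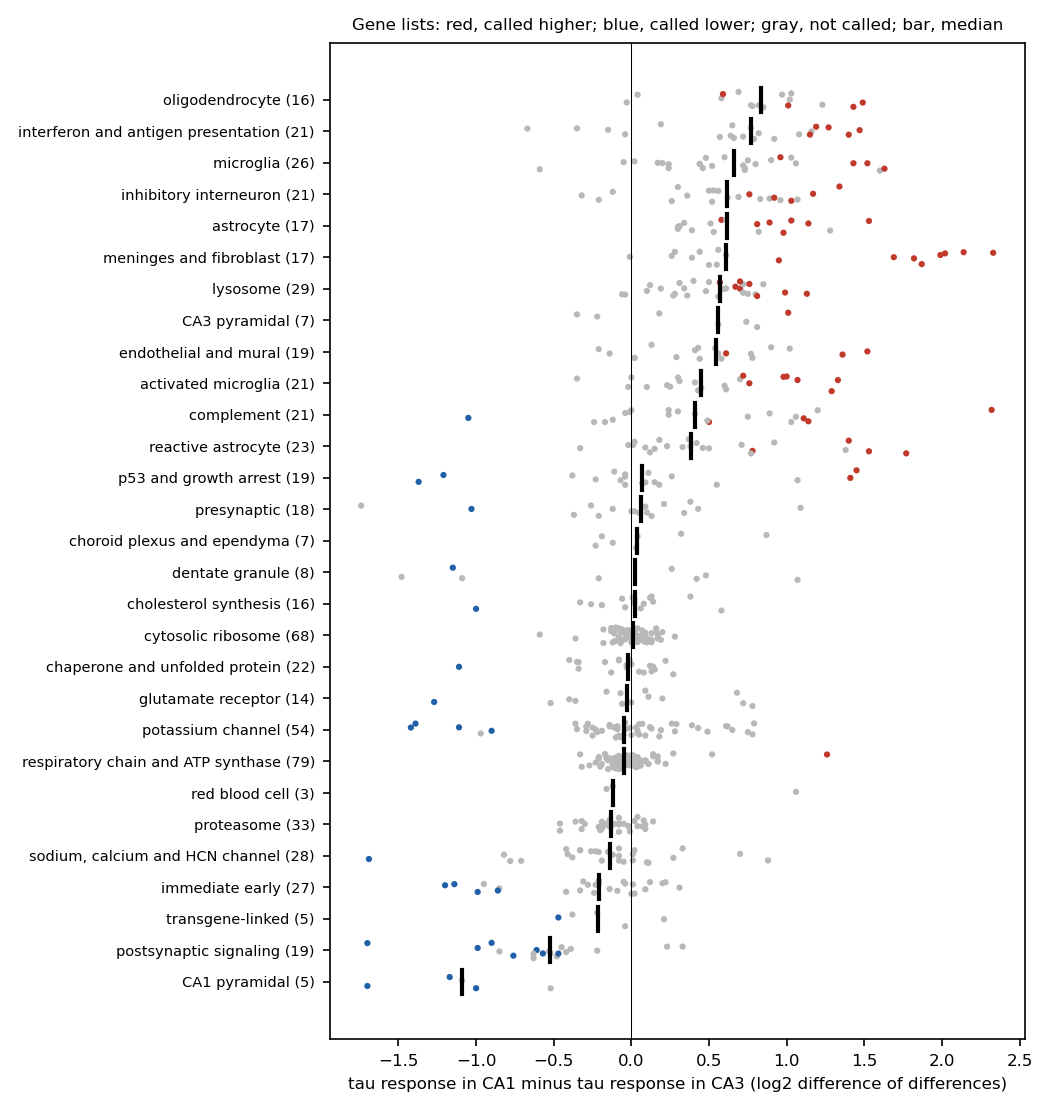
Median difference of differences (log2, CA1 response minus CA3 response) of the genes of each list, shown as a bar, with each member as a point that is red or blue where called higher or lower and gray where not called. The lists of glial, lysosomal and interferon genes lie above 0, with medians from 0.38 to 0.84, and the CA1 pyramidal list lies lowest at -1.09.

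The 10 genes with the largest positive difference, by the same rule, were Nupr1, Igf2, C4b, Myl9, Vim, Ptgds, Igfbp5, Efemp1, Apod and Bgn, from 2.61 to 1.87. Apart from C4b and Nupr1, a stress-induced chromatin protein, they are known from vascular, meningeal or other stromal cells or from reactive glia: Igf2, Ptgds and Bgn from leptomeninges, and Myl9 from smooth muscle. A list of 17 meningeal and fibroblast genes was therefore put together after these values were seen, and it carries no test. It includes Bgn and Efemp1 from the 10 genes above, so their calls were known when the list was made. In it 8 were higher, 9 rose in CA1 and none passed in CA3, the median was 0.61, and 11 were under the median probe set level in all 4 groups. The mean level was 4.47 ± 0.04 in tTA CA1, 5.38 ± 0.41 in rTg4510 CA1 (4.85 to 5.81), 4.73 ± 0.21 in tTA CA3 (4.47 to 4.98) and 4.54 ± 0.33 in rTg4510 CA3 (4.33 to 5.21). The highest rTg4510 CA3 array, from mouse4549, exceeded the lowest pair of rTg4510 CA1 arrays, and without it the list median was 0.81. Igf2 read 5.99 to 6.59 in tTA CA1 and 7.42 to 8.49 in rTg4510 CA1, and 5.62 to 6.33 and 3.46 to 6.99 in CA3. Its difference of 2.33 (limma, adjusted p = 0.019) was 0.80 on a second probe set, which did not pass.

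Nupr1 had the largest positive difference of the genes named, with values of opposite sign in the layers. It read 4.41, 4.74, 5.19, 5.35 and 5.88 in tTA CA1 and 5.22, 5.69, 6.85, 7.20 and 7.28 in rTg4510 CA1. In CA3 it read 6.72, 6.92, 7.57, 7.66 and 7.86 in tTA and 5.08 to 6.66 (median 6.11) in rTg4510. The CA1 groups overlapped and the CA3 groups did not. The responses were 1.29 in CA1 and -1.32 in CA3 (adjusted p = 0.0502), and the difference was 2.61 (95% interval 1.60 to 3.62, limma adjusted p = 0.00211). The DN CA3 arrays lay at 5.83 to 6.94, and with DN as the control the difference was 1.50 (adjusted p = 0.0575). Against DN, Igf2 (1.38, adjusted p = 0.182), Myl9 (1.39, adjusted p = 0.116), Igfbp5 (1.35, adjusted p = 0.0719) and Apod (1.59, adjusted p = 0.0528) did not pass either, whereas C4b was 2.22 and Gfap 1.03.

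Promoter windows, the 250 bases before the RefSeq start on GRCm38.p6, were found for 18 of these 20 genes. They were searched on both strands for 4 short motifs. The AP-1 motif TGANTCA, read by Jun and Fos proteins, occurred in 2 of the 18 genes, Ptgds and Efemp1, and in 7.82% of all 27025 genes. The ETS motif GAGGAA occurred in 5 of 18 and in 25.9% of all genes. The CRE and STAT motifs occurred in none of the 18, and in 1.77% and 1.09% of all genes. The windows with the AP-1 letters are shown in capitals at the match, beside that of Rin1, a gene with a lower value whose window holds none of the 4 motifs. A match is a description and not a site.
Ptgds (chr2:25469750-25469999, minus strand): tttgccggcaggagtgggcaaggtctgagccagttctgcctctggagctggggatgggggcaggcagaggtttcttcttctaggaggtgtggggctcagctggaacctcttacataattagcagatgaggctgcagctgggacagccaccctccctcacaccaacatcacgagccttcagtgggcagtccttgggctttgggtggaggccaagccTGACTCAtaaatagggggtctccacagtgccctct
Efemp1 (chr11:28852955-28853204, plus strand): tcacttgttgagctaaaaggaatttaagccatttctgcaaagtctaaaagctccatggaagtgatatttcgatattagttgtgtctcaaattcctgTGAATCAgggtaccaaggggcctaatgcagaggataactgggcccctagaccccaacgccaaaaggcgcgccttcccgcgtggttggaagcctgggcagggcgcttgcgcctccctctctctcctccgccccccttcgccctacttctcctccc
Rin1 (chr19:5050565-5050814, plus strand): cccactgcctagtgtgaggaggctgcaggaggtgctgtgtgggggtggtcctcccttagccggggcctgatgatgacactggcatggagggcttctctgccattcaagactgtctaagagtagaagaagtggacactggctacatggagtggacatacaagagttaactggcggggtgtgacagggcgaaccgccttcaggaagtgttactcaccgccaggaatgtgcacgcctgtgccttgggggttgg
In Ptgds the match lay 35 to 29 bases before the start, and in Efemp1 154 to 148 bases before it.

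Groups with general cell functions held few differences. Over all genes only 2.53% were higher and 1.78% lower, so low counts in lists of this size do not set them apart. Of 68 cytosolic ribosome genes, 9 fell in CA1 and 4 in CA3 and none differed (median 0.01), and Rpl29 and Rpl9 had fallen by 0.47 and 0.46 in CA1 and by 0.47 in CA3 for both. Of 79 respiratory chain and ATP synthase genes, 2 rose and 7 fell in CA1, 2 fell in CA3, and Cox6b2, a tissue-restricted subunit, was higher (1.26, median -0.04). Of 33 proteasome genes none differed (median -0.13), though 25 were below 0, against 6045 of 11807 over all genes. Of 16 cholesterol synthesis genes, 4 fell in CA1 and 3 in CA3, among them Idi1, Cyp51 and Fdft1 in both layers, and Srebf2, the regulator of the pathway, was the 1 that differed (-1.0, median 0.02), though its second probe set gave -0.30 without passing. Of 22 chaperone and unfolded protein genes, Dnajb5 differed (-1.11), while Hsp90aa1 and Hsp90b1 rose in both layers with differences of 0.05 and 0.14.

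Mapt, the mouse tau gene, had 3 probe sets, and whether these also read the human tau transcript was not tested. The brightest read 6.06 to 6.64 in tTA CA1, 6.11 to 6.71 in rTg4510 CA1, 6.64 to 7.09 in tTA CA3 and 5.95 to 7.16 in rTg4510 CA3, all overlapping within a layer, with a difference of 0.21 (95% interval -0.23 to 0.65). A second gave -1.35 (limma, adjusted p = 0.0455), set by CA3, where it was 5.00 ± 0.52 in tTA and 6.20 ± 0.64 in rTg4510, and DN CA3 was 6.21 ± 0.28. The third gave 0.54 without passing. Of 5 genes linked to the transgenes, Fgf14, a sodium channel modulator whose gene the tau insertion is known to disrupt, fell by 0.68 in CA1 and differed by -0.47 (limma, adjusted p = 0.0373), and this was lost in 18 of 33 alternatives. The list median was -0.22.

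The rTg4510 mice differed among themselves in CA1. The mean microglial level was 6.75 in mouse4535, 5.99 in mouse4549, 5.98 in mouse4600, 6.38 in mouse4653 and 6.82 in mouse4666. The astrocyte level was 9.19, 8.55, 8.43, 8.85 and 9.09 in the same mice. The CA1 pyramidal level was 7.65, 7.92, 7.15, 6.34 and 7.07, and the lowest of these came from mouse4653, whose microglial and astrocyte levels were the third highest. That mouse also had the highest interneuron level (7.36), and mouse4549 had the highest postsynaptic level (8.72). With CA1 of mouse4549 left out, 1279 probe sets passed for the difference, and with CA1 of mouse4653 left out, 507.

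Of the 69 called probe sets named by the rule, 30 kept their call in all 33 alternatives. Among them were those of Scn3b, Itpka, Plk2, Egr1, Rin1, C4b, Gfap, Ptprc, Lamp2, Slc32a1 and Nupr1. The alternatives did not cover other probe sets, where Slc32a1 did not pass, or the DN control, against which Nupr1 did not pass. None of the 878 called probe sets changed sign in an alternative that included it.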

How the data were processed

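Laser-captured CA1, CA3 and dentate granule layers of 17 mice were profiled on 49 HT-MG-430A arrays after RNA amplification. The authors deposited log2 RMA values in the series matrix. The methods mention anti-log RMA values for their own tests, but the deposited values run from 1.94 to 13.5 and were taken as log2. Hybridization batches are not given in the sources used here. Of 22716 probe sets, 90 controls were left out. Probe sets were named from the platform annotation: 18003 had 1 symbol, 287 several and 4336 none here. A gene stands for its brightest probe set in the lists.

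The 9 groups of genotype and layer were fitted to all 49 arrays in limma 3.58.1 (R 4.3.3) with mouse as a random block (consensus correlation 0.117), and p was adjusted by Benjamini-Hochberg over 22626 probe sets, with a threshold of 0.05 and no fold minimum. Over 10 same-mouse CA1 and CA3 pairs the deviations from group means correlated with a median of 0.0956 (range -0.00942 to 0.226). The mouse number in the title is the animal, which pairs the arrays. No 2 arrays were identical. The number of arrays limits the precision.

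Named genes were, first, the 10 largest positive and 10 largest negative called genes with at least 1 group mean at or above the median level. To these came the 3 members of lowest p of each of 28 lists and of the meningeal and fibroblast list put together later. The rest were 13 genes fixed by name and genes called in opposite directions in both layers. Other list members that passed are given with their values. The members and lists were chosen with earlier results of these data known. The alternatives were other normalizations, filters, weights, blocks, arrays in the fit, an Actb covariate, the least significant difference contrasts of the methods, and each array left out in turn. The fit was tested on simulated data. The methods' analysis of variance results were not used.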

Additional observations from a re-analysis of the deposited data

Results flagged for a closer look

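The 878 probe sets whose tau response differed between CA1 and CA3 (limma, adjusted p below 0.05) are a difference of 1 contrast between layers and are described above.

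The Actb 3′ to 5′ log2 ratio, CA1 minus CA3 within a mouse, differed by 0.18 between rTg4510 and tTA mice (two-sided exact permutation p = 0.0159).

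Among 126 sets of 5 or 6 values over 21 genes, 5 held a value far from its group, which is no more than chance gives (about 1 in 20). Gad2 in rTg4510 mouse4535 had a CA1 minus CA3 value of 1.95, the highest. Ifit1 in tTA mouse4592 had a CA1 minus CA3 value of 0.11, the highest. Tyrobp in tTA mouse4626 had a CA1 minus CA3 value of 0.58, the highest. Mapt in CA3 of rTg4510 mouse4535 read 5.95, the lowest, and its CA1 minus CA3 value in that mouse was 0.72, the highest.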

How the results depend on the processing

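None of the 878 calls changed direction in an alternative that included its probe set, but their number was not kept. The fit without dim probe sets left out the 132 called sets under the median level in all 4 groups. All alternatives reuse the same arrays, so a kept direction is no independent evidence. With no replicate block the count was 526 (313 higher and 213 lower), all of them among the 878, and with mouse as a fixed replicate block it was 832, of which 708 were shared. With the mouse block but only the 21 arrays of the 4 groups it was 281 (182 and 99). That fit takes the spread from fewer arrays and without the DN and dentate groups. Which of these lowered the count was not tested. The least significant difference contrasts on log2 values gave 422 (248 and 174). For other fits the count lay between 651 (Actb ratio as covariate) and 1063 (without dim probe sets), and median-centred arrays gave 429 higher and 468 lower. Leaving out 1 array gave 507 to 1279 calls for the difference, 295 to 714 higher and 196 to 565 lower. The lowest counts came without rTg4510 CA1 of mouse4653 (507) or mouse4666 (521) and the highest without that of mouse4549.

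The CA1 count of 3017 became 1870 on the 21 arrays. The CA3 count of 366 became 44 there, 574 without all arrays of mouse4621 (an alternative chosen after seeing the data), and 137 to 538 with 1 array left out, the lowest without tTA CA3 of mouse4570. It was 161 without rTg4510 CA3 of mouse4535, 214 without that of mouse4666 and 205 without tTA CA3 of mouse4592. Array weights gave 5107 calls between CA1 and CA3 in DN mice, and 2140 for the difference of differences against DN. The cause of these shifts was not tested.

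Of the 496 higher and 382 lower probe sets, 94 and 38 were under the median level in all 4 groups, where signal limits the measurement. Calls for Wfs1, Xbp1, Slc2a1, Cx3cr1, Fgf14, Irf8, Cldn11 and Nectin3 were lost most often, and 19 of 69 named calls were lost with 1 array or more left out.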
